A study of Mus musculus with 10 samples.

Results

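A set of 9 transcription factor genes that pattern the chambers of the heart, out of 17575 genes in the deposited tables, was followed in hearts of mice lacking Ft1. They were chosen by name as factors of the atria, of the ventricles or of left and right chambers. The members are Tbx5, Nr2f1, Nr2f2, Irx4, Hey1, Hey2, Hand1, Hand2 and Nkx2-5, and each has a row in all 3 tables. RNA sequencing covered 10 hearts of male mice at 1 week of age, taken from 3 Ft1ko, 4 Ft1sm22ko and 3 WT animals. Ft1 is the product of the mouse gene Aktip and is known as a protein that protects chromosome ends. Ft1ko mice lack it in the whole body, after a cross of Ft1 floxed mice with the CMV-cre/Tg(CMV-cre)1Cgn line. Ft1sm22ko mice lose it where the sm22-cre/Tg(Tagln-cre)1Zli transgene is active, which means cells that use the promoter of sm22 (Tagln), a marker of vascular smooth muscle that early heart muscle also expresses. The control animals are labelled WT. The comparisons ask how diffuse and vasculature targeted loss of Ft1 differ in the heart, here at the level of the factors that set chamber identity.

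The 4 chambers of the heart are muscle of different origin and gene use, and a small network of DNA binding proteins keeps them apart. Tbx5 is a T-box factor of the left ventricle, the atria and the conduction system, and acts together with Nkx2-5 and Gata4. Nr2f1 and Nr2f2, also known as COUP-TFI and COUP-TFII, are orphan nuclear receptors of atrial muscle, and Nr2f2 also specifies veins. Irx4 is an Iroquois homeobox factor of ventricular muscle. Hey1 and Hey2 are repressors switched on by Notch, with Hey1 in the atria and Hey2 in the compact ventricular wall in the embryo. Hand1 and Hand2 are basic helix-loop-helix (bHLH) factors of the embryonic left and right ventricle, and Hand2 is also made in sympathetic neurons, endocardium and epicardium. Nkx2-5 is a homeobox factor of heart muscle in every chamber.

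Sequences upstream of the transcription start are shown for the members in which a short motif of a related regulator was found, because they place members beside factors measured in the same hearts. RefSeq promoter windows of 250 bases before the start, build GRCm38.p6, were matched for 6 of the 9 members. The stretch for Hand2 is chr8:57320733-57320832 on the plus strand and covers bases 250 to 151 before the start. The stretch for Hey2 is chr10:30842924-30843023 on the minus strand and covers bases 240 to 141 before the start. The stretch for Nkx2-5 is chr17:26841616-26841715 on the minus strand and covers bases 150 to 51 before the start. This RefSeq start of Nkx2-5 lies inside the longer span that GENCODE gives the gene, so the stretch is upstream of that start and not of the whole span. Each is written 5′ to 3′ in the direction of its gene, and capitals mark a motif that reads on the opposite strand.
Hand2: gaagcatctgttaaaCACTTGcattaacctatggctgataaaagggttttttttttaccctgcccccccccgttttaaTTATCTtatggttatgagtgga
Hey2: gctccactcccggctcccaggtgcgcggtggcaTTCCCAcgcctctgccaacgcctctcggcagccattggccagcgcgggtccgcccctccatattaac
Nkx2-5: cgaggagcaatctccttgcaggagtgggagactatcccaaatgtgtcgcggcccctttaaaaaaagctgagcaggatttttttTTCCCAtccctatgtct

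In Hand2 the capitals are the NK-2 homeobox site CAAGTG, 235 bases before the start, and the GATA site AGATAA, 172 bases before it. In Hey2 and Nkx2-5 they are the Rbpj site TGGGAA, the letters bound by the DNA binding partner of Notch, at 207 and 67 bases before the start. In all, 6 motifs were searched on both strands, and they do not overlap one another in these stretches. Of 32851 mouse promoter windows of the same length, 11.6% hold CAAGTG, 9.99% hold AGATAA and 21.6% hold TGGGAA. The T-box core GGTGTGA (3.33% of windows), the nuclear receptor core AGGTCA (14.0%) and the Hey E-box CACGTG (6.02%) were in none of the 6 member windows. A match describes the letters of the window and no more.

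The authors' deposited tables hold 1 value per gene and comparison, made with DESeq2 from reads counted per gene. Values of single hearts are therefore not analysed here, and neither the overlap between hearts nor the depth of a library can be given. Each table gives a mean normalized count over both groups and a log2 fold change with its standard error (SE). Group means below were worked out from these and have no error of their own. A gene is said to have risen or fallen where its Wald p, adjusted by Benjamini-Hochberg over all genes with a p, was under 0.05. Each table was scaled on its own, so levels are compared only within a table. Aktip, the deleted gene, was lower by 1.93 on the log2 scale in Ft1ko and by 1.21 in Ft1sm22ko hearts than in WT. All 12 cardiomyocyte markers were present in every group, and their means added up to 318801 normalized counts for Ft1ko against 1616240 for WT, and to 929867 for Ft1sm22ko against 2174900 for WT. Over all genes with a p the log2 fold changes had a median of 0.13 in Ft1ko hearts over WT, of 0.06 in Ft1sm22ko hearts over WT and of -0.05 between the mutants, and member fold changes are given without subtracting it. The samples are labelled heart and the study names cardiac tissue, without saying which parts were collected. In such RNA, fewer cells of a type, less RNA per cell and a different share of tissue parts cannot be told apart.

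Of the 9 members 2 rose and 1 fell in Ft1ko hearts against WT. Tbx5 and Nr2f2 rose, and Nkx2-5 fell. Among all 16748 genes tested in that comparison 19.7% rose and 16.1% fell, and the members' median log2 fold change was 0.35. In Ft1sm22ko hearts against WT, Tbx5 rose, and Nr2f1 and Irx4 fell, out of 8 members with a p. There 16.2% of 16661 genes rose and 16.0% fell, and the members' median was 0.05. With 3 of 9 and 3 of 8 members called, in both directions, the counts lie near these backgrounds. Only Tbx5 in Ft1ko passed the stricter Bonferroni adjustment.

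**Figure D1:**
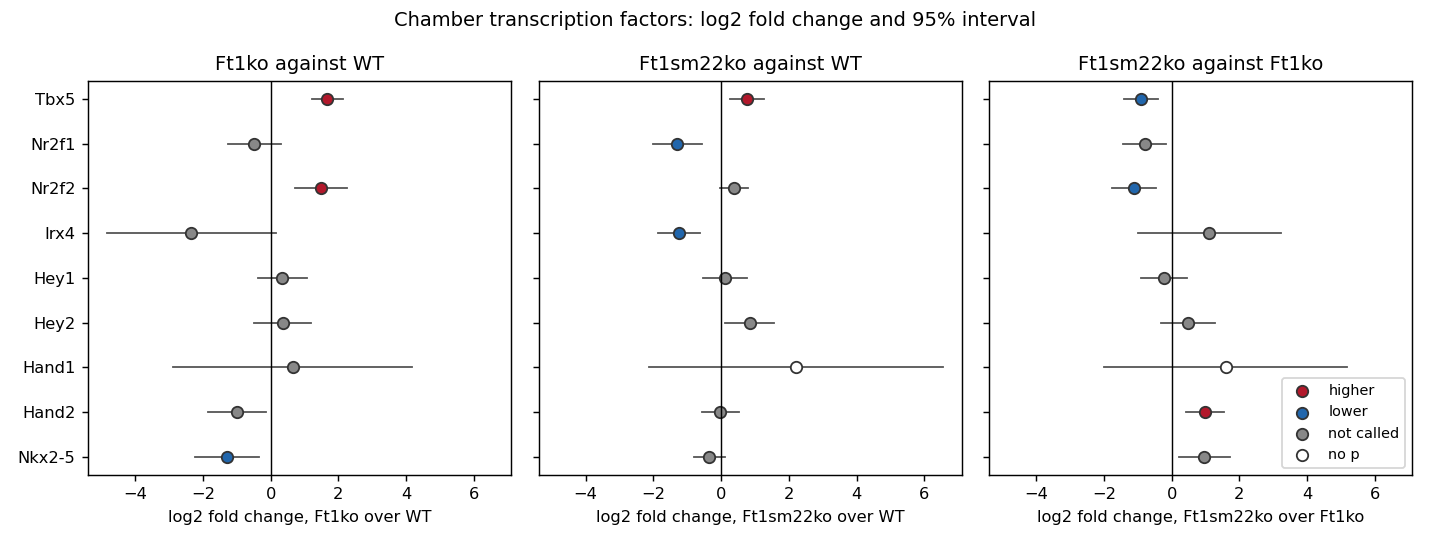
Log2 fold change of each member (x axis) with its 95% interval (line), in a panel each for Ft1ko over WT, for Ft1sm22ko over WT and for the mutants against each other; red points rose, blue points fell, grey points did not pass and open points have no p. Tbx5 lies right of 0 in both comparisons with WT, and the intervals of Irx4 in the panels that hold Ft1ko hearts and of Hand1 in all panels are the widest.

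Levels per kilobase of exon put the members in a similar order in all groups, with Nkx2-5 first and Hand1 last. In WT, within the table shared with Ft1ko, Nkx2-5 stood at 728 normalized counts per kb, ahead of Hand2 at 408 and Irx4 at 375. Tbx5 at 88.3, Hey1 at 75.9, Nr2f2 at 45.8 and Nr2f1 at 37.4 formed a lower tier, followed by Hey2 at 17.0 and Hand1 at 0.595 per kb. In Ft1ko hearts Nkx2-5 at 296 and Tbx5 at 282 per kb were neighbours, Hand2 had 205 and Nr2f2 129, and Irx4 at 74.3 per kb stood below Hey1 at 96.9. In Ft1sm22ko hearts, in their own table with WT, the first 6 places were those of WT, with Irx4 at 214 and Tbx5 at 202 per kb next to each other. Hey2 at 40.9 per kb stood above Nr2f1 at 20.7 in Ft1sm22ko, whereas in WT of that table Nr2f1 at 50.6 stood above Hey2 at 22.8. Without values per heart it cannot be said which neighbours in these orders differ beyond their spread.

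**Figure D2:**
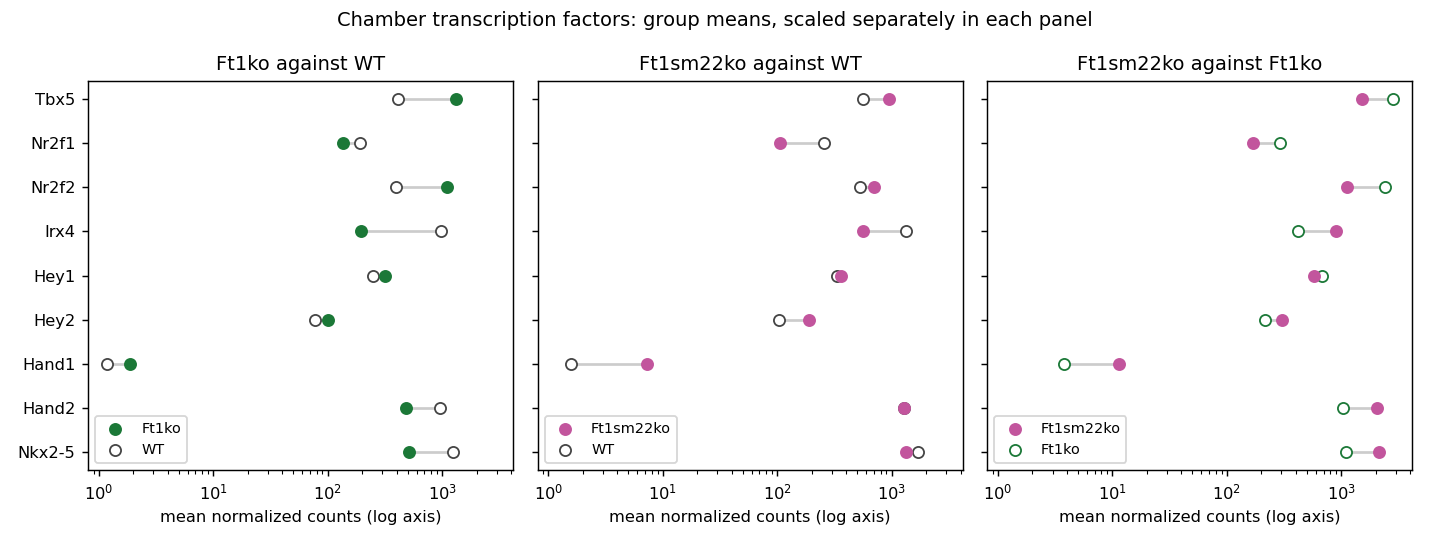
Group means of the 9 members in normalized counts (log axis), with filled points for the mutant named first in each panel and open points for the group it is set against; each panel has its own scaling and the points carry no error. Tbx5 stands at 1316 in Ft1ko and 413 in WT, and Hand1 lies below 12 in every group.

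Tbx5 was the member with the smallest p against WT in Ft1ko hearts. Its gene lies at chr5:119832668-119885219 on the plus strand of GRCm38. Tbx5 averaged 1316 normalized counts in Ft1ko hearts and 413 in WT, a rise of 1.67 on the log2 scale (SE 0.24, 95% interval 1.21 to 2.13, adjusted p = 7.64e-11). In Ft1sm22ko hearts it averaged 947 against 557 in WT and rose by 0.77 on the log2 scale (SE 0.26, interval 0.25 to 1.28, adjusted p = 0.0146). The rise was smaller in Ft1sm22ko. The direct comparison gave means of 1523 in Ft1sm22ko and 2839.6 in Ft1ko, a log2 difference of -0.90 (SE 0.25, adjusted p = 0.00487). The absolute Wald statistic of Tbx5 in Ft1ko against WT was larger than that of 98.3% of all genes tested.

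The 2 COUP-TF genes received different calls. Nr2f2 (chr7:70351944-70366735, minus strand) averaged 1112 normalized counts in Ft1ko hearts against 395 in WT and rose by 1.49 on the log2 scale (SE 0.39, interval 0.73 to 2.26, adjusted p = 8.47e-04). In Ft1sm22ko hearts it had 695 against 532 in WT, a log2 fold change of 0.39 that did not pass (SE 0.21, interval -0.03 to 0.80, adjusted p = 0.153). Between the mutants Nr2f2 was lower in Ft1sm22ko, at 1116 against 2403 in Ft1ko, with a log2 fold change of -1.11 (SE 0.33, adjusted p = 0.00883).

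Nr2f1 (chr13:78188973-78199757, minus strand) fell in Ft1sm22ko hearts, to 105 normalized counts against 258 in WT, with a log2 fold change of -1.29 (SE 0.37, interval -2.01 to -0.57, adjusted p = 0.00252). In Ft1ko it had 137 against 190.3 in WT and a log2 fold change of -0.48 that did not pass (SE 0.40, interval -1.27 to 0.31, adjusted p = 0.372). The mutants themselves, at 169 in Ft1sm22ko and 294 in Ft1ko, differed by -0.80 on the log2 scale without passing (SE 0.32, adjusted p = 0.0589), so the fall is not shown to belong to Ft1sm22ko alone. The mean of Nr2f2 was 8.14 times that of Nr2f1 in Ft1ko hearts, against 2.08 times in WT. In Ft1sm22ko the ratio was 6.60, against 2.06 in WT of that table. These ratios of means have no error and no test. Both genes overlap noncoding RNAs of the other strand, and whether the counting used strand is not given in the sources used here. A830082K12Rik, antisense to Nr2f1, had log2 fold changes of -0.13 in Ft1ko and -0.23 in Ft1sm22ko over WT and passed in neither. B130024G19Rik, which overlaps Nr2f2, had a log2 fold change of -1.82 in Ft1sm22ko over WT (adjusted p = 0.0049) and -0.61 in Ft1ko over WT, which did not pass.

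Irx4 had the largest log2 difference from WT among the members with a p, with unequal precision in the 2 mutants. Its gene lies at chr13:73260479-73269608 on the plus strand. In Ft1sm22ko hearts it averaged 558 normalized counts against 1322 in WT and fell by 1.24 on the log2 scale (SE 0.32, interval -1.86 to -0.62, adjusted p = 6.65e-04). In Ft1ko hearts the means were further apart, 194 against 978 in WT, yet the log2 fold change of -2.34 did not pass (SE 1.27, interval -4.82 to 0.15, adjusted p = 0.141). That SE was 4.0 times the median of 0.32 among genes with a mean within a factor of 2, and larger than that of 99.6% of them. With it, a log2 change had to reach 3.0 to be called. The SE was also wide between the mutants, where Irx4 had 895 in Ft1sm22ko and 416 in Ft1ko, a log2 difference of 1.11 (SE 1.08, interval -1.01 to 3.22, adjusted p = 0.517). In Ft1sm22ko against WT, the table without Ft1ko hearts, it was 1.38 times that of like genes.

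The mean of Tbx5 was 6.80 times that of Irx4 in Ft1ko hearts, against 0.42 times in WT. In Ft1sm22ko hearts it was 1.70 times, against 0.42 in WT. Tbx5 thus stood above Irx4 in mean count in both mutants and below it in WT, although no test of these ratios can be made from the tables. These counts are not divided by exon length, which is 4675 bases for Tbx5 and 2607 for Irx4. Per kb of exon, Irx4 at 214 stood above Tbx5 at 202 in Ft1sm22ko hearts. In Ft1ko hearts Tbx5 at 282 per kb remained above Irx4 at 74.3.

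Hey2 and Hey1, the Notch targets, passed in no comparison. Hey2 (chr10:30832359-30842801, minus strand) had 99.8 normalized counts in Ft1ko against 77.9 in WT, a log2 fold change of 0.36 (SE 0.43, interval -0.49 to 1.21, adjusted p = 0.55). In Ft1sm22ko it had 188 against 105 in WT, a log2 fold change of 0.84 close to the threshold (SE 0.37, interval 0.12 to 1.57, adjusted p = 0.0655). Hey1 (chr3:8663359-8667256, minus strand) had 316 in Ft1ko against 248 in WT and a log2 fold change of 0.35 (SE 0.37, interval -0.38 to 1.08). In Ft1sm22ko Hey1 had 362 against 334 in WT, a log2 fold change of 0.11 (SE 0.33, interval -0.53 to 0.76). The intervals leave room for changes of Hey1 by up to 1.08 upward in Ft1ko, so equal levels are not shown. Hey2 stood at 0.32 of the mean of Hey1 in Ft1ko and 0.31 in WT, and at 0.52 in Ft1sm22ko and 0.31 in WT.

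Of the Hand genes, Hand2 differed between the mutants and Hand1 was barely detected. Hand2 (chr8:57320983-57324633, plus strand) averaged 483 normalized counts in Ft1ko hearts against 958 in WT, a log2 fold change of -0.99 just short of the threshold (SE 0.43, interval -1.83 to -0.15, adjusted p = 0.0583). In Ft1sm22ko its means were 1269 against 1287 in WT, a log2 fold change of -0.02 (SE 0.27, interval -0.56 to 0.51, adjusted p = 0.962). Hand2 was higher in Ft1sm22ko, at 2044, than in Ft1ko, at 1040.1, by 0.97 on the log2 scale (SE 0.29, interval 0.41 to 1.53, adjusted p = 0.00679). Hand2os1, an RNA on the other strand at Hand2, was sought and has no value under that name in any of the 3 comparisons. Hand1 (chr11:57828705-57832818, minus strand) averaged 1.86 normalized counts in Ft1ko against 1.19 in WT, and 7.28 in Ft1sm22ko against 1.57 in WT. Its log2 fold change of 0.65 in Ft1ko over WT has an interval of -2.89 to 4.19, so a change was not detectable there, and in the other tables Hand1 has no p. A p is left out for genes with an extreme count in 1 library, so its mean of 7.28 in Ft1sm22ko may rest largely on 1 heart.

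Nkx2-5 (chr17:26838664-26845009, minus strand) fell in Ft1ko hearts to 509.7 normalized counts, against 1251 in WT. The log2 fold change was -1.30 (SE 0.48, interval -2.24 to -0.35, adjusted p = 0.0235), and its SE was 1.53 times that of like genes. In Ft1sm22ko hearts Nkx2-5 had 1324 against 1682 in WT, a log2 fold change of -0.35 that did not pass (SE 0.24, interval -0.82 to 0.13, adjusted p = 0.279). Between the mutants it had 2131 in Ft1sm22ko and 1096 in Ft1ko, a log2 difference of 0.96 short of the threshold (SE 0.38, adjusted p = 0.0587).

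The direct comparison of the mutants called 3 members, with Hand2 higher and Tbx5 and Nr2f2 lower in Ft1sm22ko than in Ft1ko. In that comparison 10.8% of 17169 genes were higher and 9.0% lower. Both comparisons with WT use the same 3 WT hearts, so the direct comparison is the test of a difference between the mutants. Nr2f1, Irx4 and Nkx2-5, each called against WT in a single mutant, did not pass in it.

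Markers of heart muscle moved in the same hearts as the members, and their part in the members' changes was not tested. Of 12 genes of atrial muscle 8 rose and Kcna5, a potassium channel, fell in Ft1ko, with a median log2 fold change of 4.65. In Ft1sm22ko 9 rose and none fell, with a median of 4.58. Their summed means were 58964 normalized counts in Ft1ko against 3295 in WT, and 79304 in Ft1sm22ko against 4439 in WT. Myl7, the atrial myosin light chain, had 18782 in Ft1ko against 55.6 in WT, and 16445 in Ft1sm22ko against 75.4 in WT. The summed atrial RNA was thus low in WT and high in both mutants. Between the mutants 1 atrial muscle gene was higher and 1 lower in Ft1sm22ko, with a median log2 difference of 0.09, or -1.13 after subtracting that of the cardiomyocyte markers.

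Genes of ventricular muscle followed another pattern. Of 9, none rose and 5 fell in Ft1ko, among them Myl3 and Pln, and their median log2 fold change was -1.84, or 0.58 after subtracting the median of the cardiomyocyte markers. In Ft1sm22ko Myl2 and Kcnip2 fell out of 8 with a p (median -0.33), and 7 of 9 were higher in Ft1sm22ko than in Ft1ko (median 1.47). After the same subtraction these medians were 0.88 in Ft1sm22ko over WT and 0.25 between the mutants. All 12 cardiomyocyte markers fell in Ft1ko (median -2.42) and 7 fell in Ft1sm22ko (median -1.21), and 9 were higher in Ft1sm22ko than in Ft1ko (median 1.22).

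**Figure D3:**
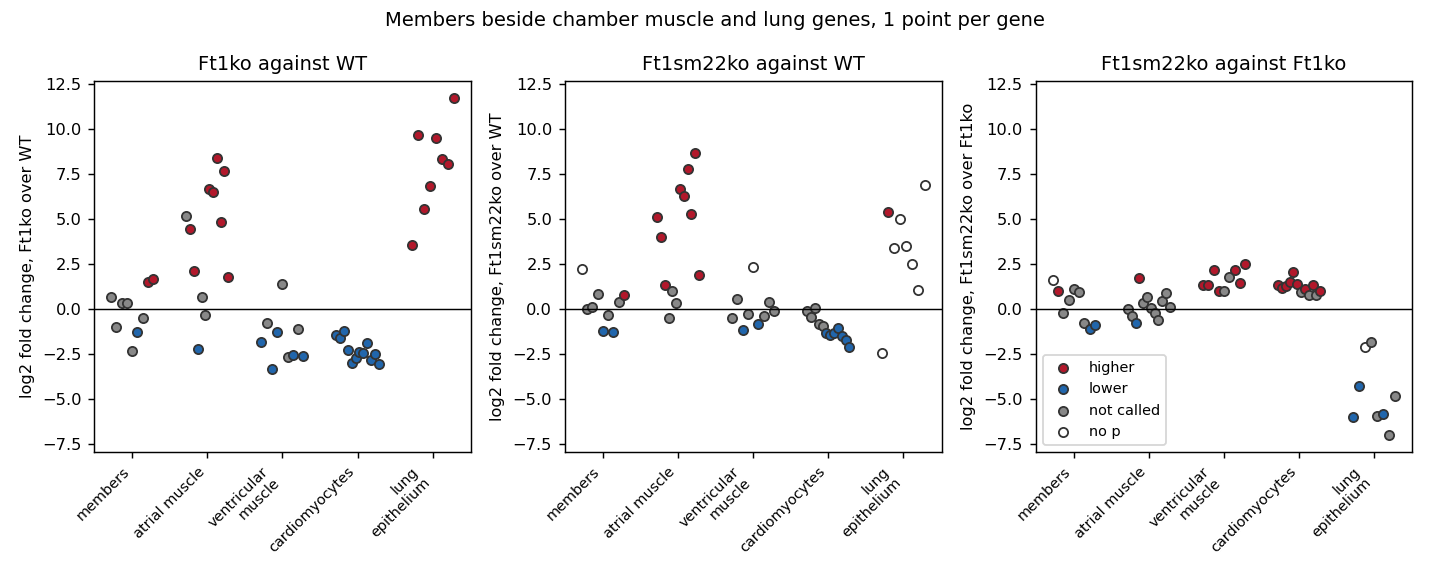
Log2 fold change (y axis) of the 9 members, 12 atrial muscle, 9 ventricular muscle, 12 cardiomyocyte and 8 lung epithelium genes, 1 point per gene, with red for higher, blue for lower, grey for not called and white for no p. Before any centring, the members' medians against WT (0.35 and 0.05) lie between those of atrial genes (4.65 and 4.58) and of cardiomyocyte genes (-2.42 and -1.21). Nr2f1 and Irx4 in Ft1sm22ko over WT lie slightly below the cardiomyocyte median, and lung genes stand out in Ft1ko.

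Set against cardiomyocyte RNA in place of all RNA, several members change direction. Subtracting the median of the 12 cardiomyocyte markers turned the log2 fold change of Nkx2-5 in Ft1ko over WT to 1.12 (adjusted p = 0.024) and that of Hand2 to 1.43 (adjusted p = 0.00126). In Ft1sm22ko over WT it brought Irx4 to -0.03 and Nr2f1 to -0.08, and neither passed. Hand2 between the mutants went to -0.24 and no longer passed, while Tbx5 and Nr2f2 kept their direction and their call. Under this scaling nearly all calls go in 1 direction, with 14419 higher and 83 lower in Ft1ko over WT, in place of 3291 and 2695. For Ft1sm22ko over WT it gives 10954 higher and 259 lower in place of 2706 and 2661, and between the mutants 59 and 12795 in place of 1855 and 1546.

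**Figure D4:**
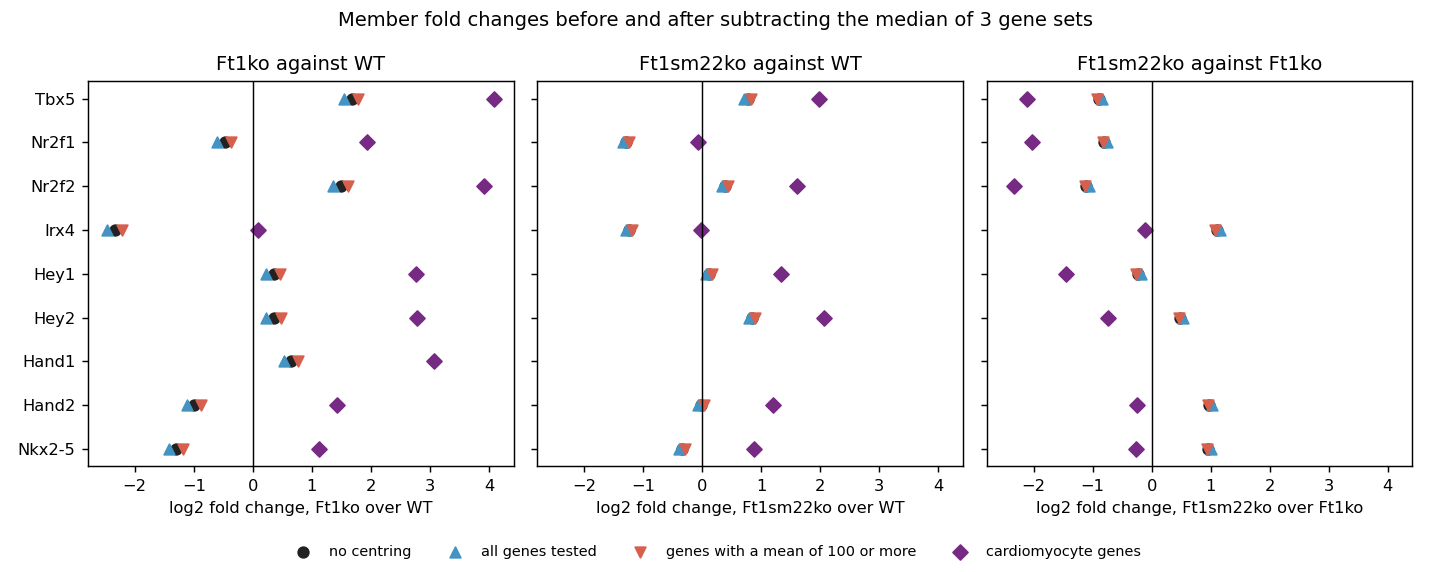
Log2 fold change of each member (x axis) with no centring (circles) and after subtracting the median of all genes tested (triangles up), of genes with a mean of at least 100 (triangles down) or of 12 cardiomyocyte markers (diamonds). The first 3 lie close together, while the diamonds are shifted by 2.42, 1.21 and -1.22, which takes Nkx2-5 and Hand2 across 0 in every panel.

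Genes of tissue next to the heart muscle also moved, and their part in the members' changes was not tested. Tbx5 and Nr2f2 are also made in the mesenchyme of the lung. All 8 lung epithelium markers rose in Ft1ko, with summed means of 48840 normalized counts against 442 in WT. In Ft1sm22ko only Aqp5, a water channel, had a p and rose, and the sum was 4021 against 608 in WT. Sftpd and Aqp5 had means under 1 in WT. Of 8 epicardial and mesothelial markers 7 rose in each mutant, with median log2 fold changes of 3.41 in Ft1ko and 3.42 in Ft1sm22ko. Of 5 endocardial markers 5 rose in Ft1ko and 4 in Ft1sm22ko. Of 8 markers of venous and lymphatic endothelium, where Nr2f2 acts, 3 rose and Prox1 fell in Ft1ko, and 3 rose in Ft1sm22ko. Of 11 genes of sympathetic neurons, which use Hand2, 5 rose and Dbh fell in Ft1ko, and 3 rose in Ft1sm22ko. Thymocyte markers had no p in either table with Ft1ko hearts, and their summed means were 4281 in Ft1ko against 46.4 in WT. A p is left out for genes with an extreme count in 1 library. The thymocyte sum in Ft1ko and the lung sum in Ft1sm22ko may therefore rest largely on 1 heart, which cannot be checked without values per heart.

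Other cardiac transcription factors split in both directions like the members. Of 23 with a p, 4 rose and 4 fell in Ft1ko, with a median log2 fold change of 0.13, the same as all genes tested. Among those that rose in both mutants were Gata5, Isl1 and Tbx20, and Tbx20, a T-box partner of Tbx5, rose by 1.20 in Ft1ko and by 1.65 in Ft1sm22ko on the log2 scale. Mef2c, Myocd, Smyd1 and Prdm16, factors of muscle genes, fell in Ft1ko, and all 4 change sign when centred on cardiomyocyte markers. In Ft1sm22ko 6 rose, Gata4 and Meis2 among them, while Tbx2, a T-box repressor, Prdm16 and Klf13 fell. After that centring Tbx2 stood at 0.0047, Prdm16 at 0.33 and Klf13 at 0.29. Gata4, partner of Tbx5 and Nkx2-5, had a log2 fold change of 0.71 in Ft1sm22ko over WT and of 0.12, which did not pass, in Ft1ko over WT.

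Among 27 family relatives of the members with a p, 6 rose and 3 fell in Ft1ko, and 4 rose and 5 fell in Ft1sm22ko. The T-box gene Tbx4 and the NK-2 gene Nkx2-1, both of the developing lung, rose by 8.18 and 7.03 on the log2 scale in Ft1ko. The bHLH gene Tcf21, of epicardium and fibroblasts, rose by 1.89 in Ft1ko and by 1.97 in Ft1sm22ko, together with Twist2 and Msc. Tcf15, another bHLH gene, fell by 3.37 in Ft1ko and by 1.49 in Ft1sm22ko, and Tbx6 fell by 2.40 in Ft1ko, where cardiomyocyte centring brings it to 0.02, and by 2.60 in Ft1sm22ko. Hes1, a Notch target like the Hey genes, fell by 0.64 in Ft1sm22ko, with a sign that turns on cardiomyocyte centring, and had -0.47 in Ft1ko, which did not pass. The other Iroquois genes with a p, Irx1, Irx2, Irx3, Irx5 and Irx6, passed in no comparison.

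Genes for partners of bHLH proteins such as Hand1 and Hand2 moved in both mutants. Of 7 E protein and Id genes, Tcf12, Id2 and Id4 rose and Tcf4 and Id1 fell in Ft1ko and again in Ft1sm22ko. Id2, which holds bHLH factors off DNA, rose by 2.88 in Ft1ko and by 2.39 in Ft1sm22ko on the log2 scale. Both falls in Ft1ko, and that of Id1 in Ft1sm22ko, turn above 0 on cardiomyocyte centring.

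Of 24 genes of the Notch pathway, which drives Hey1 and Hey2, 6 rose and 3 fell in Ft1ko, and 3 rose and 3 fell in Ft1sm22ko. Rbpj, whose motif letters stand in the Hey2 and Nkx2-5 windows above, rose by 1.24 in Ft1ko and by 1.12 in Ft1sm22ko. The ligand Jag2 fell by 1.18 in Ft1ko and 1.02 in Ft1sm22ko, and the receptor Notch4 by 1.23 and 0.96, with both genes above 0 after cardiomyocyte centring. Hey1 and Hey2 themselves did not pass in the same hearts.

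Retinoic acid, made by the Aldh1a enzymes, is the signal of the posterior, atrial end of the heart tube and raises Nr2f genes. Of 18 genes of its pathway 7 rose and 3 fell in Ft1ko, and 5 rose and 2 fell in Ft1sm22ko. Aldh1a2, the main enzyme of the embryonic heart, rose by 1.29 in Ft1ko and by 1.91 in Ft1sm22ko on the log2 scale. Aldh1a3 rose by 1.66 in Ft1ko and by 2.26 in Ft1sm22ko. Aldh1a1 rose by 3.84 in Ft1ko, while its 2.43 in Ft1sm22ko over WT did not pass (SE 1.03, adjusted p = 0.0565). Rxrg, a retinoid receptor, fell by 3.69 in Ft1ko and by 1.49 in Ft1sm22ko. Over the 5 regulator and pathway lists together, 26 of 99 genes with a p rose and 15 fell in Ft1ko, and 21 of 99 rose and 15 fell in Ft1sm22ko. Among all genes tested 19.7% rose and 16.1% fell in Ft1ko, and 16.2% rose and 16.0% fell in Ft1sm22ko.

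The genes nearest to each member that was called against WT were sought among 48 cardiac factors and family relatives, by the distance between the pairs of log2 fold changes over WT. Shox2, a factor of the sinus node, was nearest to Tbx5 at 0.57 and to Nr2f2 at 0.41. Shox2 itself passed against WT in neither mutant, with 1.14 (SE 0.58) in Ft1ko and 0.58 (SE 0.56) in Ft1sm22ko. Smyd1, a muscle methyltransferase, was nearest to Nkx2-5 at 0.23, followed by Myocd at 0.41. Klf13 was nearest to Nr2f1 at 0.42, and Tcf15 to Irx4 at 1.07. Each distance rests on only 2 values per gene with shared WT hearts, and is a description.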

How the data were processed

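RNA of 10 hearts was sequenced from stranded mRNA libraries (Universal Plus mRNA-Seq kit). The authors aligned the reads to a reference named hg38, a human build, although the deposited gene names are mouse symbols, counted reads gene by gene and ran DESeq2 on each pair of groups. The deposited mean signal is the average over both groups of counts divided by size factors. Fold changes and standard errors were deposited in log2 units. A further deposited score, the Wald statistic, comes with a deposited 2-sided p-value, which DESeq2, as the authors ran it, leaves out for genes with an extreme count in 1 library.

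Only these columns of the authors' comparisons were at hand, and all results rest on them. Fold changes were turned to mutant over WT or Ft1sm22ko over Ft1ko, and p were adjusted again over the 16748, 16661 and 17169 genes with a p by Benjamini-Hochberg, threshold 0.05. The study's methods use Bonferroni, which was an alternative, with a log2 limit of 1, minimum means of 10 or 100, the deposited adjusted p and 3 centrings. Group means follow from the mean, the fold change and the number of hearts. Intervals are 1.96 SE. Library depth is unknown, and the mean signals sum to 12855800, 17494300 and 19300100. That replicates are separate animals is stated by the study. The 3 fold changes of a member close to within 0.031 on the log2 scale.

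Members and the 19 lists were chosen with earlier results of these data known. Named were all members, Aktip, up to 4 genes per list with the smallest p against WT, called regulators of the first 2 lists, and the 2 nearest genes per called member. The Iroquois relatives, and Hes1 in Ft1ko, were named after their values were seen. Gene places and exon lengths come from GENCODE M21 (GRCm38), promoters from RefSeq. Steps used python 3.11.15, numpy 2.4.6, pandas 2.3.3, scipy 1.17.1 and matplotlib 3.10.9 and were tested on simulated data.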

Additional observations from a re-analysis of the deposited data

Results flagged for a closer look

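For 3 members the 2 mutants differed, as tested by the direct comparison of Ft1sm22ko with Ft1ko hearts. Tbx5 had a log2 difference of -0.90, beside 0.77 in Ft1sm22ko over WT and 1.67 in Ft1ko over WT. Nr2f2 had a log2 difference of -1.11, beside 0.39 in Ft1sm22ko over WT, which did not pass, and 1.49 in Ft1ko over WT. Hand2 had a log2 difference of 0.97, beside -0.02 in Ft1sm22ko and -0.99 in Ft1ko over WT, neither of which passed. Over the same hearts atrial muscle genes summed to 127746 normalized counts in Ft1sm22ko and 126943 in Ft1ko, lung epithelium markers to 6314 in Ft1sm22ko and 105826 in Ft1ko, and cardiomyocyte markers to 1497500 in Ft1sm22ko and 686268 in Ft1ko. The part of these RNAs in the differences was not tested.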

How the results depend on the processing

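Of the 9 calls of members, 9 were kept with a mean of at least 10 or 100, with the deposited adjusted p, and when centred on all genes or on genes with a mean of at least 100. Bonferroni kept 1 member for Ft1ko over WT and 0 in the other comparisons, each of which had 3 by Benjamini-Hochberg. A log2 limit of 1 left 1 call between the mutants and took away that of Tbx5 in Ft1sm22ko over WT (0.77). A mean of at least 100 raised the calls between the mutants to 5, adding Nr2f1 (adjusted p = 0.0483) and Nkx2-5 (adjusted p = 0.0481). Centring on all genes added Hand2 in Ft1ko over WT (-1.12, adjusted p = 0.0295) and Nkx2-5 between the mutants (1.01, adjusted p = 0.0437), and centring on genes with a mean of at least 100 added Hey2 in Ft1sm22ko over WT (0.89, adjusted p = 0.049) and Nr2f1 between the mutants (-0.83, adjusted p = 0.0496). Centred on cardiomyocyte markers, 7 members were called in Ft1ko and 6 in Ft1sm22ko over WT. Most genes were called under that centring, 14502 of 16748 in Ft1ko and 11213 of 16661 in Ft1sm22ko over WT. The larger counts of members are therefore not particular to them. The log2 fold changes that turned sign were then 1.94 for Nr2f1, 0.0798 for Irx4, 1.43 for Hand2 and 1.12 for Nkx2-5 in Ft1ko over WT. They were 1.19 for Hand2 and 0.87 for Nkx2-5 in Ft1sm22ko over WT, and -0.11 for Irx4, -0.73 for Hey2, -0.24 for Hand2 and -0.26 for Nkx2-5 between the mutants. Centred on genes with a mean of at least 100, Hand2 in Ft1sm22ko over WT had 0.0298. These shifts follow from the value subtracted.

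No paired analysis was possible because the tables hold no values per heart, so neither a replicate block nor a fit without each replicate was run, and other count models and normalizations were not run. Hand1, with a p in Ft1ko over WT alone, was called there under none of the settings that gave it a value.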
